A study of Drosophila melanogaster with 5 samples.

Results

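The nuclear-encoded genes of the mitochondrial respiratory chain were followed in the heads of fly pupae with and without a mutation in orthodenticle. They were taken by symbol: probe sets of the array whose annotation names a single gene starting with ND-, UQCR-, COX and a number, ATPsyn or Sdh, and the gene blw, and where a gene had several probe sets the one of highest mean signal over the 5 arrays was kept. The rule also asks for Cyt-c-p, the cytochrome c gene of most tissues, which had no single-gene probe set in the table used and was not analysed here. It gave 68 genes of the 10844 named on the array, measured by 70 of its 13966 probe sets. Of the 68, 50 encode subunits of complexes I to IV or of the ATP synthase, 17 are duplicated copies of such genes with a symbol ending in L or in L and a number, and 1 (Sdhaf3) is an assembly factor. Another 4 probe sets hold a symbol of the rule beside a second gene, among them those of ATPsynG and COX6B, and were left out.

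Total RNA came from whole heads of Drosophila melanogaster at 80 h from the start of the pupa, pooled as 15 to 20 heads in each sample, and 1 Affymetrix array was hybridised per RNA extraction. The otd-uvi strain, which carries what the labels call an eye-specific mutant allele of orthodenticle (oc, a homeodomain transcription factor gene), gave 3 arrays, and the wild-type strain Canton S gave 2. The groups are 2 separate strains, so their genetic background differs together with the allele, and the labels do not give the sex of the flies. The mutation is described for the eye, while the RNA is that of the whole head.

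The respiratory chain passes electrons from NADH (through complex I) and from succinate (through complex II) by way of ubiquinone to complex III, and from there by cytochrome c to complex IV, which reduces oxygen. Complexes I, III and IV pump protons out of the mitochondrial matrix, and the ATP synthase lets them back in to make ATP. Photoreceptors and neurons, which spend much ATP on ion pumping, and muscle are rich in this machinery. Mitochondrial DNA encodes a few central subunits, and all genes below lie in the nucleus. In flies many of these genes have duplicated copies, most of which are known for expression in the testis.

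None of the 68 genes passed the test between otd-uvi and Canton S. The lowest adjusted p was 0.177 (limma over all 13966 probe sets, Benjamini-Hochberg, threshold 0.05), and the same test called 0.773% of all probe sets. An unadjusted p under 0.05 was reached by 4 of the 68 (5.88%), against 15.0% of all probe sets. The 4 were ND-39, UQCR-14, SdhAL and ATPsynbetaL. The groups did not overlap on any array for 23 of the 68, which is 33.8%, against 34.0% of all probe sets. Of these, 16 (23.5% of the 68) had every otd-uvi array below every Canton S array, where all probe sets gave 15.4%, and 7 (10.3%) had every otd-uvi array above, where all probe sets gave 18.6%. These shares differ with signal. Of the 48 subunits in the top decile of mean signal, 13 had every otd-uvi array below and 2 every one above. For the other 1348 probe sets of that decile these counts were 387 and 161. The test calls a difference only where it is large against the spread of 5 arrays, so the sizes it leaves possible are given with each group of genes.

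For the subunits these sizes were small. Over the 50 subunits the median log2 difference was -0.08 (otd-uvi minus Canton S, on the scale of log2 of signal plus 8), and single values ran from -0.46 to 0.35. The -0.46 is that of ND-B8, a dim gene for which no size is given below. The 48 subunits in the top decile of mean signal ran from -0.43 to 0.35. The array carries 8 control probe sets for mouse and yeast transcripts, and 48 of the 50 subunits read above the brightest of them on every array. Of these 48, 44 had a 95% interval of the difference within 1.5-fold either way, against 17.1% of all probe sets. Another 5 members had such an interval at signals not above the controls on every array, where the 8 added before taking logs narrows it. The bright subunits, 48 in the top decile of mean signal, had mean signals of 301 to 4449 in otd-uvi and 303 to 5113 in Canton S. Of the other 1348 probe sets in that decile, 45.3% had an interval within 1.5-fold, against 91.7% of the 48 subunits.

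**Figure D1:**
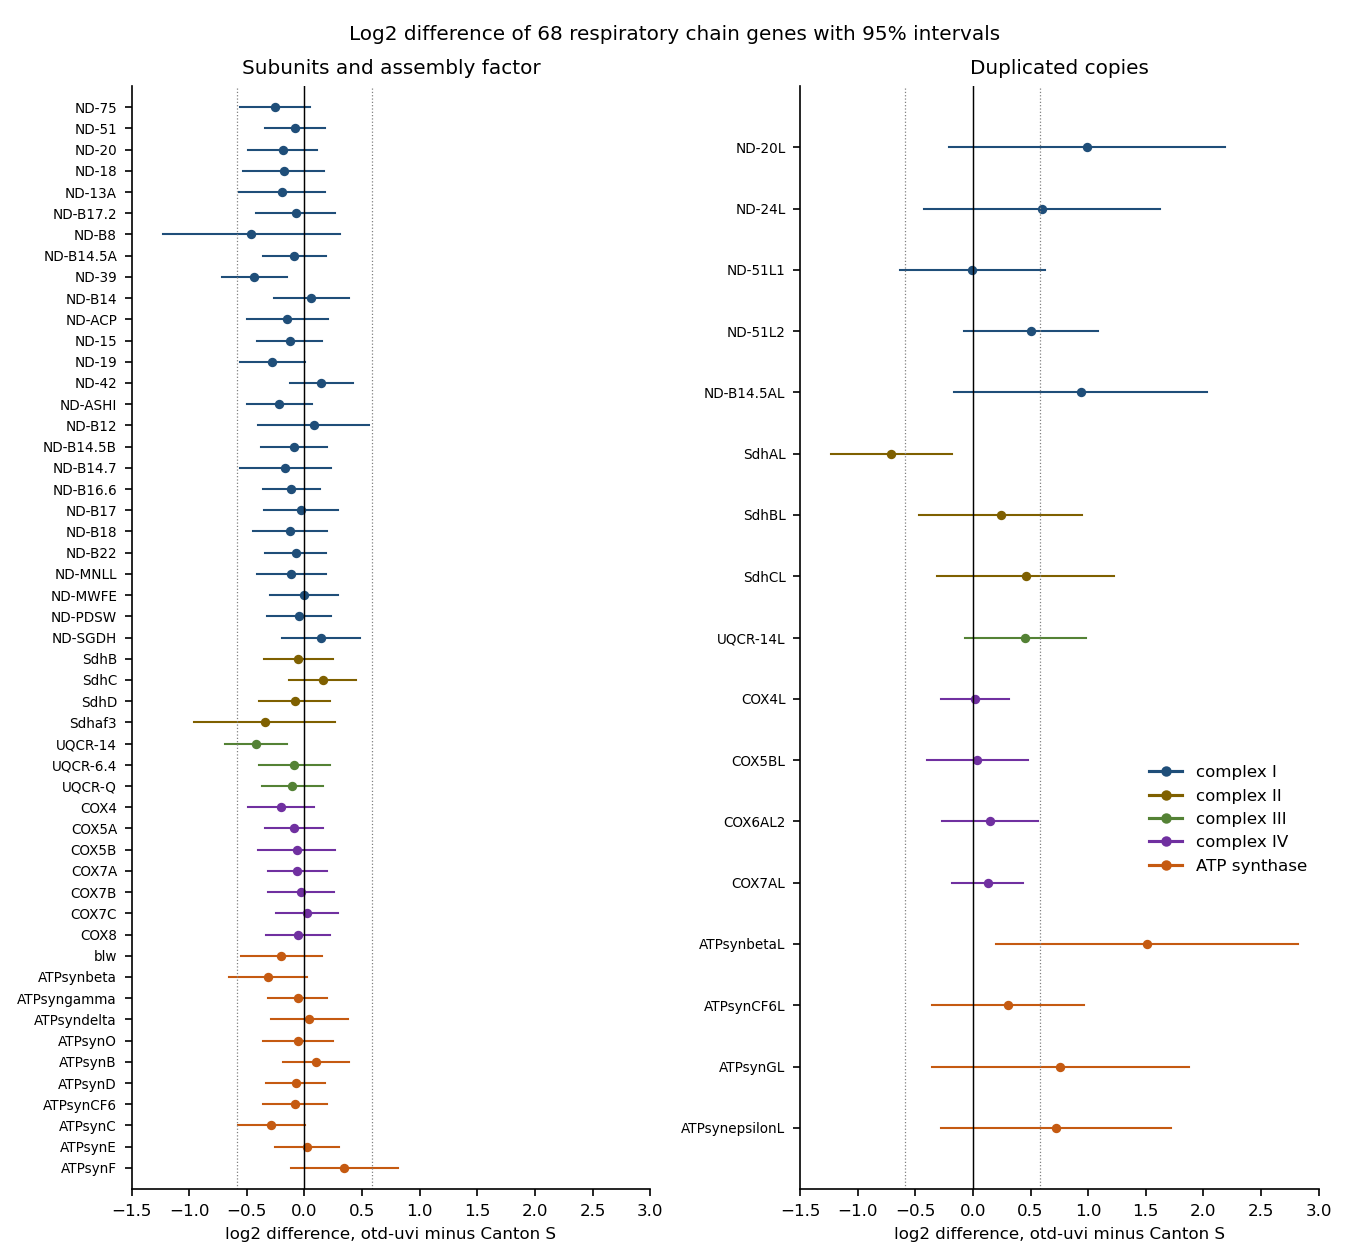
Log2 difference of each of the 68 genes (points, otd-uvi minus Canton S) with its 95% interval (lines), coloured by complex, with subunits and the assembly factor on the left and duplicated copies on the right. Dotted lines mark 1.5-fold in either direction. The subunits lie between -0.46 and 0.35, while the copies run from -0.71 to 1.51 with wider intervals. The -0.46 is that of ND-B8, a dim gene whose size is not determined.

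More subunits lay below 0 than above it, 40 of 50. Whether their direction goes with signal was not tested within the subunits. Bright probe sets as a whole were lower in otd-uvi in these data, with a median log2 difference of -0.09 in the top decile, and dim ones higher, with 0.27 in the third decile. The 48 bright subunits had a median of -0.08 and the other 1348 probe sets of the same decile one of -0.09. Below 0 were 81.2% of these subunits and 64.5% of the other probe sets. The subunits' median went to 0.0054 after quantile normalization and to -0.0035 after cyclic loess, both of which remove a shift that goes with signal. No direction is therefore given for the subunits as a group.

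**Figure D2:**
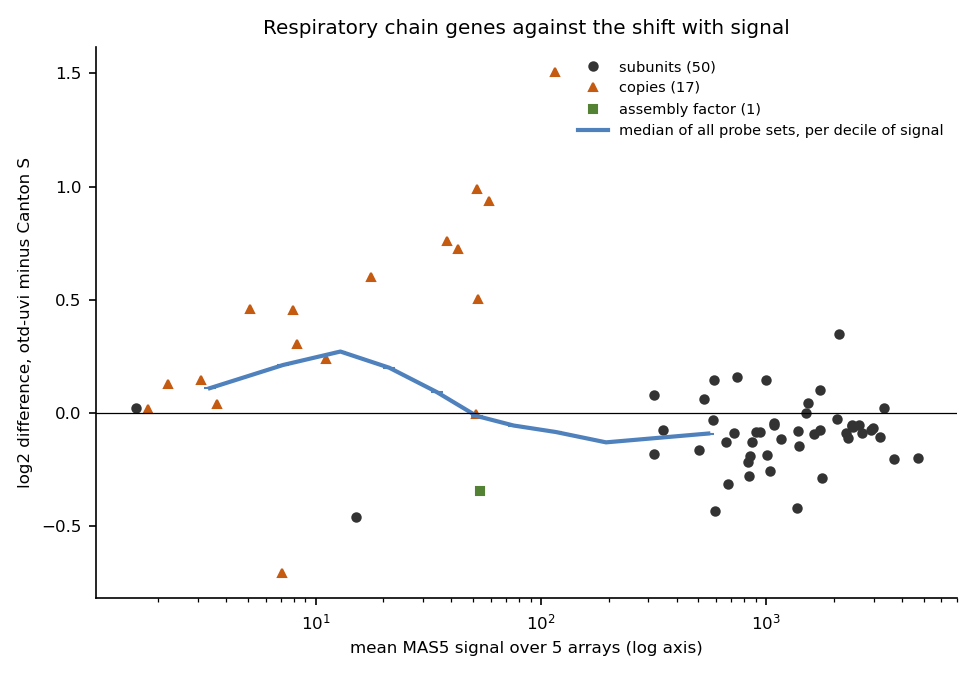
Log2 difference (otd-uvi minus Canton S) of the 68 genes against their mean MAS5 signal over 5 arrays on a log axis, with the median of all probe sets in each decile of signal as a line. The line ends at the median signal of the top decile, 553, and many bright subunits lie at higher signals. Their median is -0.08, where the top decile has -0.09.

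Complex I, the NADH dehydrogenase, is the largest of the complexes and supplied 31 of the genes, 26 of them subunits. The 26 had a median log2 difference of -0.11, with 22 (84.6%) below 0 and none called. Of all probe sets in the top decile of signal, 65.1% were below 0. Its peripheral arm, which reaches into the matrix and holds the flavin and iron-sulfur clusters, had a median of -0.18 over 10 genes, and its membrane arm one of -0.09 over 15. ND-ACP, an acyl carrier protein found in both arms, was counted in neither. The peripheral arm includes the dim ND-B8. The medians of the arms were not computed under other scalings, and no contrast between the arms is read from them.

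The 3 measured core subunits, which carry the electrons, did not overlap between groups. Of all 1397 probe sets in the top decile of signal, 40.3% did not overlap, and 400 had every otd-uvi array below. No pattern of the core is therefore read from these 3 genes. ND-75, an iron-sulfur subunit, had signals of 874, 1063 and 952 in otd-uvi, against 1179 and 1118 in Canton S. Its log2 difference was -0.26 (95% interval -0.56 to 0.05, limma adjusted p = 0.410). ND-20, an iron-sulfur subunit next to the ubiquinone site, had 985, 1019 and 854 in otd-uvi and 1057 and 1110 in Canton S, and ND-51, which binds NADH, had 861, 887 and 905 in otd-uvi and 948 and 925 in Canton S. In each of the 3 genes every otd-uvi array was lower than both Canton S arrays, none passed the test, and ND-51 was at 0.014 after cyclic loess.

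ND-39, an accessory subunit of the peripheral arm, stood furthest from 0 among the bright subunits. Its signals were 519, 543 and 491 in otd-uvi and 710 and 694 in Canton S, so that every otd-uvi array lay well below both Canton S arrays. Its log2 difference was -0.43 (SE 0.12, 95% interval -0.72 to -0.15), with an unadjusted p of 0.00813 and a limma adjusted p of 0.182. Leaving out any 1 array gave differences from -0.47 to -0.40. ND-19, an accessory subunit of the membrane arm, followed at -0.28 (95% interval -0.56 to 0.0041, limma adjusted p = 0.338), with 825, 728 and 765 in otd-uvi and 909 and 968 in Canton S.

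Only 4 complex I subunits lay above 0, ND-42, ND-SGDH, ND-B12 and ND-B14, at 0.15, 0.15, 0.08 and 0.06. ND-42, an accessory subunit of the membrane arm, was the one whose groups did not overlap, with 988, 1024 and 1098 in otd-uvi and 915 and 954 in Canton S (limma adjusted p = 0.586). ND-B16.6 varied little within each strain, with 2235, 2222 and 2224 in otd-uvi and 2403 and 2414 in Canton S, a log2 difference of -0.11 (95% interval -0.36 to 0.13). ND-MNLL was read by 2 probe sets, at -0.11 and -0.12.

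ND-B8, an accessory subunit, was the dim exception in this complex. Its signals were 19.1, 6.42 and 11.7 in otd-uvi and 19.2 and 19.1 in Canton S. The brightest control read 22.9, 11.2 and 16.2 on the otd-uvi arrays and 9.30 and 9.13 on the Canton S arrays, so ND-B8 stood above the controls in Canton S only. On otd-uvi replicate 1 its signal was close to that in Canton S, and no size is given for its difference (limma adjusted p = 0.544).

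Complex II, succinate dehydrogenase, belongs to both the respiratory chain and the tricarboxylic acid cycle, and all its subunits are encoded in the nucleus. Its 3 measured subunits, SdhB, SdhC and SdhD, had log2 differences of -0.05, 0.16 and -0.08. SdhC, a membrane anchor, had 783, 817 and 718 in otd-uvi and 665 and 716 in Canton S, and its groups did not overlap (95% interval -0.13 to 0.45, limma adjusted p = 0.578). SdhB, the iron-sulfur subunit, had 1162, 982 and 1069 in otd-uvi and 1064 and 1155 in Canton S, and the other anchor, SdhD, had 845, 901 and 1018 in otd-uvi and 931 and 1020 in Canton S. The signals of both genes overlapped between the strains. Sdhaf3, the assembly factor, had a log2 difference of -0.35 (95% interval -0.96 to 0.27, limma adjusted p = 0.570), from signals of 49.8, 39.4 and 53.9 in otd-uvi and 71.1 and 54.4 in Canton S.

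Complex III, which hands electrons from ubiquinol to cytochrome c, was measured by 3 small subunits. UQCR-14 had the lowest p of all 68 genes. Its signals were 1261, 1135 and 1218 in otd-uvi and 1595 and 1629 in Canton S, and no array of one strain came near the other. The log2 difference was -0.42 (SE 0.11, 95% interval -0.69 to -0.15), with an unadjusted p of 0.00728 and a limma adjusted p of 0.177, and it ran from -0.45 to -0.38 when any 1 array was left out. UQCR-6.4 and UQCR-Q were at -0.09 and -0.11 (limma adjusted p of 0.788 and 0.693). UQCR-6.4 had 2397, 2667 and 2746 in otd-uvi and 2521 and 3025 in Canton S, and UQCR-Q had 3064, 3137 and 3066 in otd-uvi and 3137 and 3522 in Canton S.

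For complex IV, cytochrome c oxidase, all 7 measured nuclear subunits lay between -0.21 and 0.02, with 95% intervals within 1.5-fold. COX4, whose mammalian counterpart takes part in regulating the enzyme by ATP, had 3776, 3487 and 3197 in otd-uvi and 3882 and 4149 in Canton S, a log2 difference of -0.21 (95% interval -0.49 to 0.08, limma adjusted p = 0.475). COX5A did not overlap between groups either, with 2252, 2180 and 2181 in otd-uvi and 2276 and 2416 in Canton S, a difference of -0.09, and COX5B overlapped, with 3220, 2956 and 2608 in otd-uvi and 2798 and 3335 in Canton S. COX7A, COX8 and COX7B were at -0.06, -0.06 and -0.03.

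COX7C differed from the other subunits of complex IV in having no signal above the controls on any array. Its probe set read 1.63, 1.27 and 2.03 in otd-uvi and 1.51 and 1.48 in Canton S, so its difference of 0.02 compares background with background.

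The ATP synthase was measured by 11 subunits with a median log2 difference of -0.06, 7 of them below 0. Its catalytic head, F1, had a median of -0.13 over 4 genes, its peripheral stalk one of -0.06 over 4 and its membrane part one of 0.02 over 3. The medians of these parts were not computed under other scalings, and no contrast between the parts is read from them. ATPsynbeta, the catalytic subunit, had 588, 700 and 556 in otd-uvi and 801 and 725 in Canton S. Its log2 difference was -0.31 (95% interval -0.65 to 0.03, limma adjusted p = 0.366). ATPsynC, which forms the rotating ring in the membrane, had 1592, 1789 and 1508 in otd-uvi and 2015 and 1956 in Canton S, a difference of -0.29 (95% interval -0.57 to 0.00027, limma adjusted p = 0.333). A second, dimmer probe set of ATPsynC was at -0.51 (limma adjusted p = 0.448). In both genes all otd-uvi arrays were below both Canton S arrays.

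The gene blw, which encodes the alpha subunit, had 4801, 4705 and 3841 in otd-uvi and 4658 and 5568 in Canton S, so the strains overlapped. Its log2 difference was -0.20 (95% interval -0.55 to 0.15, limma adjusted p = 0.564). ATPsynF, a subunit of the membrane part, lay furthest above 0 at 0.35 (95% interval -0.12 to 0.81, limma adjusted p = 0.462). Its signals were 2293, 2196 and 2322 in otd-uvi and 2268 and 1401 in Canton S. Only Canton S replicate 2 was low, and without that array the difference was 0.0011.

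**Figure D3:**
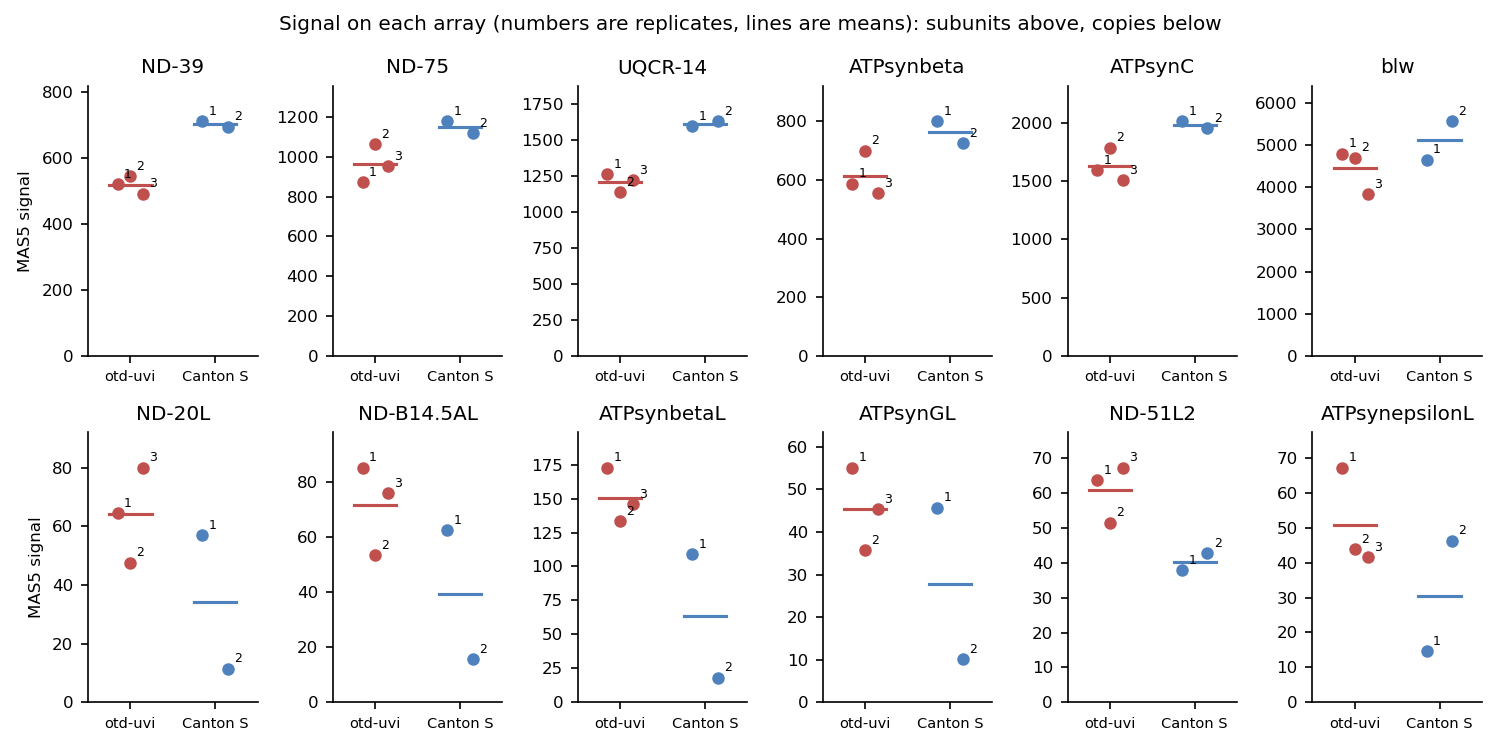
MAS5 signal on each array for 6 subunits (upper row) and 6 duplicated copies (lower row), otd-uvi left and Canton S right, with replicate numbers beside the points and lines at the group means; every vertical axis starts at 0 and has its own scale. ND-39 and UQCR-14 separate the strains, while ND-20L, ND-B14.5AL, ATPsynbetaL and ATPsynGL have 1 low Canton S array, replicate 2.

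The 17 duplicated copies were read at low signal. No copy lay in the top decile of signal. On all 5 arrays 7 of them exceeded the brightest control, and 6 exceeded it on none: SdhCL, UQCR-14L, COX4L, COX5BL, COX6AL2 and COX7AL. The copies had a median log2 difference of 0.46 (range -0.71 to 1.51), 15 of 17 were above 0 and none was called. In 10 of the 12 pairs in which the original gene was also measured, the copy had a positive and the original a negative difference on the deposited scaling. For the dim copies the deciles of like signal had positive medians too, of up to 0.27. The 7 copies above the controls had a median of 0.76 and lay in the deciles 5 to 8, whose medians ran from -0.08 to 0.09. For 5 of these 7 the difference rested on 1 Canton S array, replicate 2 for 4 of them and replicate 1 for ATPsynepsilonL.

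ATPsynbetaL, a copy of the catalytic ATP synthase subunit, had the largest difference of all members, 1.51 (SE 0.56, 95% interval 0.20 to 2.82, unadjusted p = 0.0297, limma adjusted p = 0.276). Its signals were 173, 133 and 146 in otd-uvi and 109 and 18.3 in Canton S. The otd-uvi arrays were all above both Canton S arrays, which differed from each other more than the strains did. Without Canton S replicate 2 the difference was 0.43, and without Canton S replicate 1 it was 2.58.

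A low value on Canton S replicate 2 was shared by 4 of the 7 copies above the controls, ATPsynbetaL, ND-20L, ND-B14.5AL and ATPsynGL, whose signal there was 0.168 to 0.253 times that on Canton S replicate 1. Of all 8240 probe sets above the controls on every array, 4.0% were under 0.5 times on that array, and none of the 50 subunits was. This share differs with signal. It was 13.6%, 6.38% and 1.29% of all probe sets in deciles 5, 6 and 8, which hold the 4 copies. In the top decile, which holds 48 of the subunits, it was 1.5%. ND-20L, a copy of ND-20, had 64.6, 47.6 and 79.9 in otd-uvi and 57.0 and 11.5 in Canton S. Its log2 difference of 0.99 (limma adjusted p = 0.416) became 0.12 without Canton S replicate 2. ND-B14.5AL had 85.3, 53.4 and 76.2 in otd-uvi and 62.6 and 15.8 in Canton S, and its 0.94 (limma adjusted p = 0.406) became 0.15. ATPsynGL had 55.1, 35.7 and 45.4 in otd-uvi and 45.7 and 10.1 in Canton S, and its 0.76 (limma adjusted p = 0.492) became -0.03. For these 4 genes Canton S replicate 1 resembled the otd-uvi arrays and the other Canton S array stood apart. They were singled out after their values were seen.

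Markers of other tissues did not all follow that array. Act88F and fln, genes of flight muscle fibres, also read low on Canton S replicate 2, at 0.318 and 0.324 times their signal on replicate 1. They were the only 2 of the 7 measured muscle markers under 0.5 times there. The others, up, Tm2, Mlc2, sls and Mf, were not low on that array. Act88F had 1707, 2871 and 2216 in otd-uvi and 1478 and 470 in Canton S, and fln had 533, 1184 and 768 in otd-uvi and 516 and 167 in Canton S. The testis transcripts Mst84Db and Mst84Dd were alike on both Canton S arrays, at 1.25 and 0.967 times on replicate 2. Mst84Db rose in otd-uvi, with 133, 75.9 and 135 against 11.2 and 13.95 in Canton S, and so did Mst84Dd, with 251, 114 and 265 against 33.8 and 32.7 (log2 differences of 2.54 and 2.31, limma adjusted p of 0.0221 and 0.0467). Both lost their call with either Canton S array left out (adjusted p of 0.148 to 0.297, differences of 2.29 to 2.63), with the covariate for RNA quality (0.114 and 0.157) and with the replicate block (0.191 each). Mst84Dd also lost it under quantile normalization, the larger pseudocount and no trend (0.053 to 0.0754), and both in some other fits with 1 array left out. The 7 measured testis markers summed to 353 to 747 in otd-uvi and 148 to 166 in Canton S, and bam, a germline marker, and dj, a sperm tail gene, were under the brightest control on every array. The part of muscle, testis or sex in the copies' values was not tested.

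The other copies were less tied to that array. ND-51L2 had 63.6, 51.5 and 67.2 in otd-uvi and 37.9 and 42.8 in Canton S, with no overlap and a log2 difference of 0.50 (95% interval -0.08 to 1.08, limma adjusted p = 0.40). The other copy of ND-51, ND-51L1, was at -0.0043, with 48.3, 59.9 and 46.3 in otd-uvi and 42.5 and 61.8 in Canton S. ATPsynepsilonL was low on the opposite Canton S array, with 67.1, 43.8 and 41.6 in otd-uvi and 14.6 and 46.2 in Canton S, a difference of 0.72 (limma adjusted p = 0.471) that became 1.35 without Canton S replicate 2 and 0.09 without replicate 1. ND-24L was at 0.60 and had 14.2, 11.2 and 42.1 in otd-uvi and 10.0 and 10.6 in Canton S. Only otd-uvi replicate 3 was high, and with 1 array left out the difference ran from 0.18 to 0.87. On otd-uvi replicate 1 its signal was under the brightest control.

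SdhAL, a copy of the flavoprotein of complex II, had signals of 4.33, 3.29 and 4.2 in otd-uvi, all under the controls, and of 15.7 and 8.02 in Canton S, above them on 1 array of 2. Its fitted difference of -0.71 (unadjusted p = 0.0151, limma adjusted p = 0.224) ran from -1.52 to -0.28 with other handling of low signals, so its size is not determined. SdhBL and SdhCL, ATPsynCF6L and UQCR-14L had differences of 0.24, 0.46, 0.30 and 0.46 at signals of 2.21 to 15.7. COX4L, COX5BL, COX6AL2 and COX7AL had differences of 0.02, 0.04, 0.15 and 0.13, all at background.

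Position on the chromosomes was compared because oc lies on the X chromosome. The 10 X-linked subunits had a median log2 difference of -0.15, with 9 below 0, and the 40 on other chromosomes one of -0.08, with 31 below 0. Over all probe sets in the top decile of signal that name a gene, the median was -0.08 for 184 on the X and -0.09 for 985 on the autosomes. Chromosomes were taken from RefSeq's annotation of Release 6.

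Other genes of mitochondrial metabolism gave no call either. Of 10 measured genes of the tricarboxylic acid cycle and pyruvate dehydrogenase, which supply the NADH, 9 were below 0, with a median of -0.12 and 1 at an unadjusted p under 0.05. That was muc, a pyruvate dehydrogenase subunit, at -0.32 (limma adjusted p = 0.331), followed by Ogdh at -0.30, which became 0.0012 without Canton S replicate 2. The 7 carriers and porin, among them the ADP/ATP exchangers, had a median of 0.02, with Bmcp at 0.55 and Ant2 at 0.51 (limma adjusted p of 0.375 and 0.516). Bmcp exceeded the controls on 1 of 3 otd-uvi and 0 of 2 Canton S arrays and Ant2 on 2 of 3 otd-uvi and 1 of 2 Canton S arrays, so the size of both is open to the handling of low signals (0.21 to 1.22 for Bmcp). Of 8 glycolytic genes 5 were below 0, with a median of -0.14, Pfk at -0.33 and Pgk at -0.30 (limma adjusted p of 0.445 and 0.354).

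Genes that build and maintain the chain gave no call either. The 8 assembly and insertion factors had a median of 0.09. The unadjusted p was under 0.05 for ttm50, a protein import gene, at 1.09, and for OXA1L, which inserts proteins into the inner membrane, at 0.54 (limma adjusted p = 0.259 for both). OXA1L had 111, 137 and 114 in otd-uvi and 79.7 and 80.2 in Canton S, without overlap, and ttm50 had 63.3, 75.2 and 88.6 in otd-uvi and 51.2 and 17.6 in Canton S, a difference that became 0.49 without Canton S replicate 2 and 1.70 without replicate 1. Of 7 genes of mitochondrial DNA maintenance and transcription, PolG1, the catalytic subunit of the mitochondrial DNA polymerase, was at 0.92 (limma adjusted p = 0.194), with 14.6, 23.0 and 12.9 in otd-uvi and 5.70 and 4.19 in Canton S. PolG1 exceeded the controls on 1 of 3 otd-uvi and 0 of 2 Canton S arrays, and its difference ran from 0.40 to 1.74 with other handling of low signals. TFAM, which packages and transcribes that DNA, was at 0.45 (limma adjusted p = 0.444), with 273, 236 and 280 in otd-uvi and 254 and 142 in Canton S, and at 0.05 without Canton S replicate 2 and 0.85 without replicate 1. The median of the mitochondrial DNA list was 0.17. The list of protein import genes, which does not hold ttm50 (6 genes, median 0.31, Tim13 at 0.72 and Tom40 at 0.49), the nuclear regulators (5 genes, median -0.03, Dref at -0.31) and the antioxidant enzymes (3 genes, median 0.10, Prx3 at -0.32) held no gene with an unadjusted p under 0.05 in limma. Tim13 exceeded the controls on 1 of 3 otd-uvi and 0 of 2 Canton S arrays. The antioxidant enzyme gene Sod2 was at 0.26 (limma adjusted p = 0.368). It had 567, 603 and 616 in otd-uvi and 498 and 494 in Canton S, without overlap.

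Among markers of cell types that use much ATP, those of photoreceptors held calls. The 6 measured photoreceptor markers summed to 4665 to 5698 in otd-uvi and 10759 to 11955 in Canton S. Of these, inaC and trpl were not called, with log2 differences of -0.49 and 0.03 (limma adjusted p of 0.313 and 0.967). The other 4 fell in otd-uvi (trp, inaD, Arr2 and chp, log2 differences of -1.07, -1.26, -1.42 and -1.61, limma adjusted p of 0.00968 to 0.019). Without the intensity trend in limma, trp lost its call (adjusted p = 0.0736), while inaD, Arr2 and chp kept theirs. All 4 lost their call with the replicate block, with the RNA quality covariate or without either Canton S array (adjusted p of 0.0645 to 0.181), at differences of -1.03 to -1.63, and some of them in other fits with 1 array left out. The 5 neuron markers summed to 534 to 696 in otd-uvi and 1115 to 1134 in Canton S, with none called, and the 7 muscle markers to 20329 to 24004 in otd-uvi and 20445 to 21761 in Canton S, with none called. In whole heads fewer cells of a type and less RNA per cell cannot be told apart, and the part of cell makeup in the values of the respiratory chain genes was not tested. The sum of the 50 subunits' signals was 72984, 72103 and 72327 in otd-uvi and 76285 and 77683 in Canton S. The trimmed means of all signals were also lower in otd-uvi, at 96.9, 103 and 99.4 against 105 and 106 in Canton S. No direction is therefore read from the sum.

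The remaining lists of cell markers had median log2 differences of -0.31 for fat body (6 genes, none called, summed signals of 1479 to 3638 in otd-uvi and 3316 to 4593 in Canton S), 0.0027 for glia (5 genes, none called, 2537 to 3247 in otd-uvi and 3600 to 4042 in Canton S) and 0.45 for hemocytes (6 genes, 448 to 613 in otd-uvi and 412 to 414 in Canton S). The hemocyte markers differed in direction, with 4 above 0 and 2 below. NimC1 rose, but its call was lost in every fit with 1 array left out, with the block and with the covariate. The 2 below 0, crq at -0.96 and Hml at -0.31, were not called (limma adjusted p of 0.17 and 0.597). Probe sets at the 3-prime end of control transcripts exceed those at the 5-prime end more when RNA is degraded, and this log2 ratio, averaged over transcripts, was 1.32, 1.68 and 1.88 in otd-uvi and 1.41 and 1.37 in Canton S. With that ratio as a covariate the subunits' median was -0.10 and none of the 68 genes was called. The mutated gene itself, oc, read 27.6, 46.8 and 59.8 in otd-uvi and 71.7 and 56.4 in Canton S, with overlap between the groups, and did not pass (log2 difference -0.49, limma adjusted p = 0.527).

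**Figure D4:**
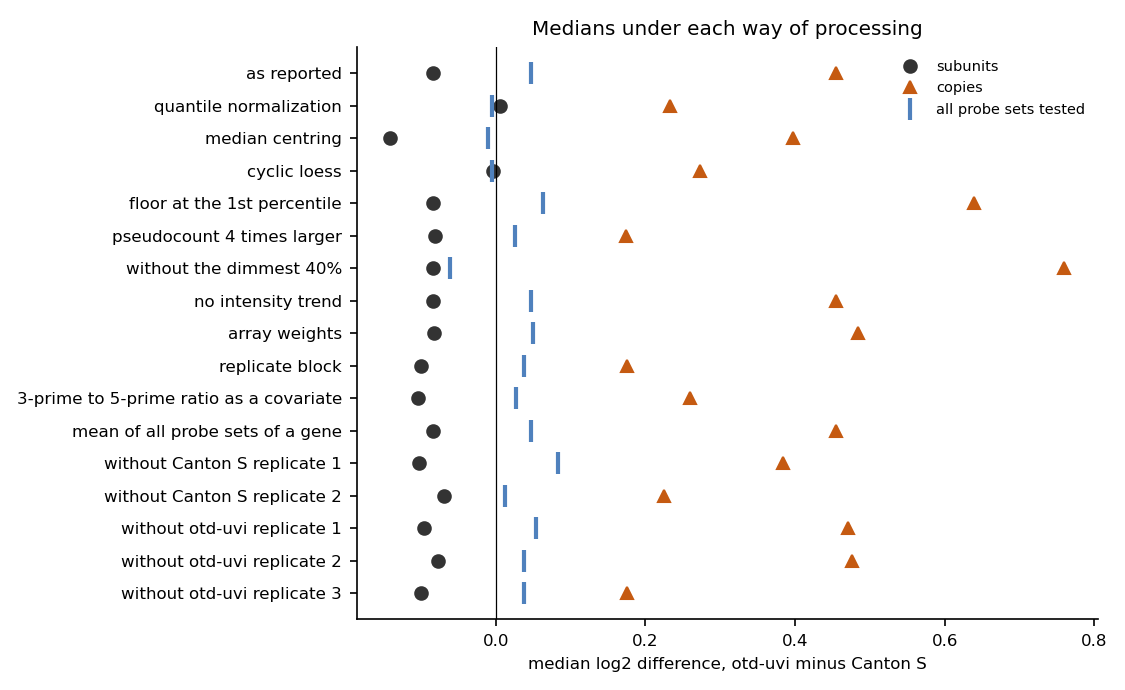
Median log2 difference (otd-uvi minus Canton S) of the 50 subunits, of the duplicated copies and of all probe sets tested, as reported and under each other way of processing. The subunits lie between -0.14 and 0.0054 and meet the median of all probe sets under quantile normalization and cyclic loess, and the copies stay above 0, at 0.17 to 0.76 (7 copies of 17 without the dimmest 40%).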

How the data were processed

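The deposited values are signal intensities on a linear scale, made with MAS5 per the submitters' processing notes. Its version, settings and scaling target, and detection calls, are not given in the sources used here. Biotin-labelled probes came from 10 ug of total RNA per the labels, and the number of arrays limits the precision. Trimmed array means of 96.9 to 106 look globally scaled.

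Control probe sets (44) were left out and 13966 were tested. A probe set names 1 gene in 12443 cases, several in 327 and none in 1196; 12394 names were updated by gene identifier through RefSeq. Signals were analysed as log2(signal + 8), 8 being the rounded 20th percentile of all signals. limma 3.58.1 in R 4.3.3 (lmFit, eBayes with an intensity trend, strain as the only term) was fitted on all probe sets with Benjamini-Hochberg adjustment; residual degrees of freedom were 3 and prior ones 4.16. Intervals are unadjusted 95% intervals. The pipeline was tested on simulated data. Replicates are separate RNA extractions.

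The genes and lists were chosen with earlier results of these data known. Named genes are blw, members past the threshold (none), in each complex the brightest member and the 3 lowest and 3 highest differences, all of complex II and the copies, and up to 2 of the largest differences per list. ND-75, ND-51, ND-20, ND-42, COX7C, ATPsynF and the members listed by value only were added after their values were seen. Listed genes without a single-gene probe set were not analysed here. Alternatives were other scalings, low-value handling, variance models, a covariate, a block, all probe sets of a gene and leaving out each array.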

Additional observations from a re-analysis of the deposited data

How the results depend on the processing

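No respiratory chain gene tested was called by limma under any of the 16 alternatives (68 genes, but 56 without the dimmest 40%), with adjusted p of 0.109 (SdhAL, quantile normalization) or more, and 36 of the 68 kept their sign wherever they were tested. With 5 arrays the number of probe sets called on the whole array was unstable. The 108 probe sets called became 208 without the dimmest 40%, 8 when the 3-prime to 5-prime log2 ratio was a covariate, 1 with the replicate number as a block, and 2 (without Canton S replicate 2) to 22 (without otd-uvi replicate 2) with 1 array left out. A lone Canton S array was assumed to vary like the otd-uvi arrays. Replicate numbers are only labels here and were not taken as pairs. Same-numbered arrays deviated from their group means with correlations of -0.0045 and 0.115. With 2 Canton S arrays each such correlation recurs with the opposite sign for the other Canton S array, so these values cannot decide on a pairing. With the block, otd-uvi replicate 3 has no partner and adds nothing to the difference. The direction of small differences depended on the scaling. Over all 68 genes the median of -0.06 became 0.0080 after quantile normalization, -0.12 after median centring and 0.0051 after cyclic loess. In the same order of scalings the median of complex I became -0.014, -0.15 and -0.0085, that of complex III 0.014, -0.15 and -0.029, and that of the ATP synthase 0.083, -0.035 and 0.086. The median of complex IV became -0.085 after median centring, and that of the ATP synthase -0.024 with the replicate block. Leaving out 1 array gave -0.20 to 0.011 for complex III and -0.039 to 0.020 for the ATP synthase, both lowest or highest without a Canton S array, except 0.020, which was without otd-uvi replicate 2. The sign turned for 21 of the 68 genes after quantile normalization (17 to higher), 21 after cyclic loess (16 to higher), 5 after median centring, 2 with array weights, 7 with the replicate block and 8 with the covariate. Among the genes named for their values, those after quantile normalization included SdhB (0.025), SdhBL (-0.023), UQCR-6.4 (0.015), UQCR-Q (0.012), COX5B (0.0056), COX7C (-0.063), COX4L (-0.086) and COX5BL (-0.11). After cyclic loess they included ND-51 (0.014), SdhB (0.040), SdhD (0.012), COX5B (0.00025), COX7C (-0.12), COX4L (-0.13), COX5BL (-0.13), COX6AL2 (-0.016) and COX7AL (-0.025). After median centring they included COX7C (-0.036), COX4L (-0.041) and COX5BL (-0.019). With the 3-prime to 5-prime covariate they included ND-51L1 (0.010), SdhB (0.013), COX5B (0.063), COX4L (-0.016) and Tim13 (-0.0036), with array weights ND-51L1 (0.0018), and with the replicate block ND-51L1 (0.058), COX5B (0.014) and COX7C (-0.0071). With 1 array left out the differences ran from -0.0072 to 0.49 for SdhBL, -0.074 to 0.11 for COX4L, -0.24 to 0.23 for ND-51L1, -0.11 to 0.0075 for SdhB, -0.22 to 0.044 for UQCR-6.4, -0.19 to 0.060 for COX5B, -0.11 to 0.19 for COX5BL, -0.025 to 1.54 for ATPsynGL, -0.60 to 0.0012 for Ogdh and -0.0071 to 0.050 for COX7C. The cause of these changes was not tested. Signals near the control probe sets limit what can be said of ND-B8, COX7C and the dim copies.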
